A study of Mus musculus with 4 samples.

Results

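The cadherin switch and the genes of epithelial-to-mesenchymal transition were examined in 4 tumors grown from mouse kidney epithelial cells that lack Atg5, an essential autophagy gene, 2 with and 2 without added p62. The 10 genes were Cdh1, Cdh2, Vim, Zeb1, Zeb2, Snai1, Snai2, Twist1, S100a4 and Lgals1, of 12393 genes that the array annotation names singly. A probe set counted as a member if its annotation gave exactly 1 gene symbol and that symbol was on this list. This gave 15 probe sets of 20380 with a single symbol, and 4 of the genes (Cdh2, Vim, Zeb1 and Lgals1) had more than 1. No probe set annotated to several genes held a member.

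The tumors of the first group expressed p62 (the product of Sqstm1, a selective autophagy receptor) fused to EGFP, and those of the second expressed EGFP, a green fluorescent protein, alone (2 tumors each). Both groups shared the rest of the background: the cells were iBMK, immortalized baby mouse kidney epithelial cells, with the genotype ATG5-/- and with Bcl-2. In both groups the cells were placed under the skin of untreated nude (NCR Nu/Nu) mice, and the age of the mice is not given in the labels. Nude mice lack a functional thymus but keep macrophages, NK cells, mast cells and stroma, so a tumor sample can hold host RNA as well. The series text calls the lines isogenic. The labels do not name the promoter of either transgene, and leave it unstated if the 2 tumors of each group had mice and cultures of their own. The p-values thus rest on the spread among these 4 tumors, which may be technical.

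In an epithelium, E-cadherin (Cdh1) joins neighbouring cells through catenins that link it to actin. During epithelial-to-mesenchymal transition, repressors of the Zeb, Snail and Twist families lower Cdh1, while N-cadherin (Cdh2) and the intermediate filament protein vimentin (Vim) become abundant. Most nephron epithelium of the kidney arises in the embryo by the reverse transition, from a mesenchyme. p62 has been reported in other cells to bind the Twist1 protein and to slow its degradation, an effect that an RNA array does not measure.

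Each value is a scaled signal on a linear scale from 1 Affymetrix array per tumor. Signals of different probe sets cannot be ranked against each other. Differences are p62-EGFP minus EGFP on the log2(signal + 16) scale, so changes of dim probe sets come out too small. Testing used limma, for probe sets whose mean over all 4 arrays reached the 40th percentile of the array, and p-values were adjusted over all 13576 tested probe sets (Benjamini-Hochberg, threshold 0.05). Of the 15 member probe sets 13 were tested, which covers 9 of the 10 genes. Snai1 and the dim probe set of Zeb1 were not.

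The arrays were alike in scale, with median signals from 57.7 to 60.95. The 3' to 5' signal ratio, a measure of RNA integrity, ran from 0.707 to 0.740 for Gapdh and from 1.28 to 1.55 for Actb. The EGFP tumors differed more from each other (r = 0.901 over the tested probe sets; probe sets are no independent replicates) than the p62-EGFP tumors did (r = 0.980). EGFP tumor 2 stood apart, with r from 0.893 to 0.902 to the other arrays. The summed signal of 18 macrophage and myeloid markers was 3308 and 3519 in p62-EGFP tumors 1 and 2, and 1846.7 and 15629.6 in EGFP tumors 1 and 2. The epithelial keratins Krt8 and Krt18 were measured in every tumor (80.5 to 239.2 and 253.9 to 729.6). Epcam, an epithelial adhesion protein, read 360.7 and 660.3 in p62-EGFP tumors, against 351.0 and 108.9 in EGFP tumors. Of the kidney lineage markers, Cdh16 (0.5 to 3.7) and Pax8 (4.7 to 11.2) were near the bottom of the scale. Lhx1 read 23.4 and 28.5 in p62-EGFP tumors, against 8.3 and 12.7 in EGFP tumors, and was too dim to be tested. Sqstm1, the check of the transgene label, read 1432.7 and 1687.8 in p62-EGFP tumors, against 975.8 and 1156.1 in EGFP tumors. Its log2 difference of 0.54 (SE 0.14) did not pass (limma adjusted p = 0.235), and whether its probes detect the transgene is not known. Atg5, deleted in the cells of both groups by their label, had 3 probe sets, which read 40.2 to 93.9 in p62-EGFP tumors, against 51.2 to 118.7 in EGFP tumors. The labels do not say which part of Atg5 is deleted, so these probes do not check the genotype, and the part of host RNA in their signal was not tested.

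No member passed the test: 0 of 13 probe sets, where 0.0884% of all tested probe sets did. At an unadjusted p below 0.05 (limma), 4 member probe sets were lower in p62-EGFP tumors and 0 were higher. These 4 belong to Zeb1, Zeb2 and Lgals1, and the shares over all tested probe sets were 5.77% lower and 8.74% higher. In 7 of the 13, each p62-EGFP tumor was below each EGFP tumor, which held for 22.2% of all tested probe sets. The 7 cover 5 genes (1 probe set of Cdh2, 2 of Vim, 1 each of Zeb1 and Zeb2, and 2 of Lgals1). In 1 of the 13, Twist1, each p62-EGFP tumor was above each EGFP tumor, against 26.7% of all tested probe sets. The median log2 difference was -0.42 over the 13 and 0.02 over all 13576. Without EGFP tumor 1, 9 of the 13 passed (20.9% of all tested probe sets), and without EGFP tumor 2, 5 did (9.53%). These fits take their spread from the p62-EGFP pair alone and assume that the lone EGFP tumor varies like it. Zeb1, Zeb2 and both Lgals1 probe sets passed in both of them. With p62-EGFP tumor 1 or 2 left out, 0 probe sets passed in the whole table. Probe sets of 1 gene are not independent, and the 10 genes were chosen with earlier results of these data known.

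**Figure D1:**
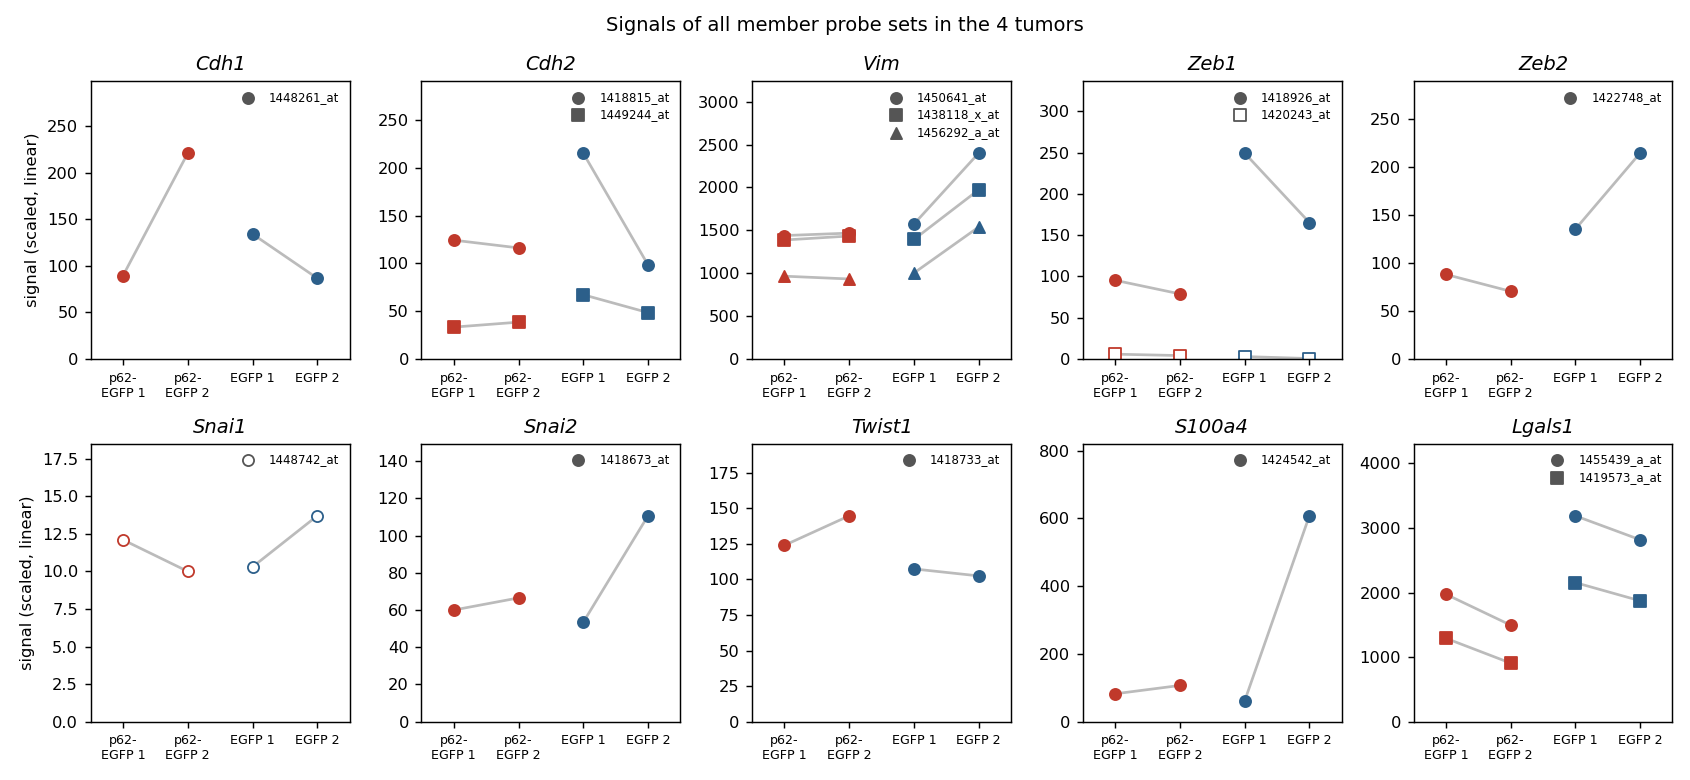
Signal (scaled, linear, axis from 0) of each member probe set in p62-EGFP tumors 1 and 2 (red) and EGFP tumors 1 and 2 (blue), with a line joining the tumors of a group; open symbols were too dim to be tested. Both p62-EGFP tumors lie below both EGFP tumors for the bright Zeb1 probe set, Zeb2 and Lgals1, while S100a4 reaches 607.4 in EGFP tumor 2 only.

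Cdh1 and the brighter Cdh2 probe set did not separate the groups, while the dimmer Cdh2 probe set was lower in both p62-EGFP tumors. Cdh1 read 89.7 and 221.2 in p62-EGFP tumors 1 and 2, against 134.3 and 86.8 in EGFP tumors 1 and 2. The highest and the second lowest value of the 4 were thus both in p62-EGFP tumors, and the groups overlapped. Its mean was 155 ± 93.0 in p62-EGFP tumors and 111 ± 33.6 in EGFP tumors (SD, n = 2 each), a log2 difference of 0.35 with a 95% interval from -0.72 to 1.42 (limma adjusted p = 0.719). The p62-EGFP tumors differed from each other by 1.17 on the log2 scale (tumor 1 minus 2, -1.17), more than the group means did. Without p62-EGFP tumor 2 the difference of Cdh1 was -0.23, and without p62-EGFP tumor 1 it was 0.93. In bulk tumors, fewer cells of a type and less RNA per cell cannot be told apart.

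Cdh2, the cadherin of mesenchymal and neural cells, was measured by a pair of probe sets that did not order the tumors alike. Probe set 1418815_at read 124.4 and 116.3 in p62-EGFP tumors, against 215.5 and 98.6 in EGFP tumors. EGFP tumor 1 was the highest and EGFP tumor 2 the lowest, so the groups overlapped, with a log2 difference of -0.26 (95% interval -1.14 to 0.62, limma adjusted p = 0.752). The dimmer 1449244_at read 33.4 and 38.6 in p62-EGFP tumors, against 67.3 and 48.6 in EGFP tumors. Here both p62-EGFP tumors were the lower ones, with a log2 difference of -0.50 (95% interval -1.05 to 0.05, limma adjusted p = 0.368). EGFP tumor 1 was the highest for both probe sets. Without it, the difference of 1418815_at turned to 0.25, and without EGFP tumor 2 it was -0.76 and passed (limma adjusted p = 0.0225).

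The ratio of the Cdh2 to the Cdh1 signal within an array, taken without a pseudocount, does not depend on a scaling factor of the array. Its absolute value has no meaning across probe sets, but it can be compared between tumors. With 1418815_at, log2 Cdh2 minus log2 Cdh1 was 0.47 and -0.93 in p62-EGFP tumors 1 and 2, and 0.68 and 0.18 in EGFP tumors 1 and 2. With 1449244_at it was -1.43 and -2.52 in p62-EGFP tumors, and -0.997 and -0.84 in EGFP tumors. p62-EGFP tumor 2 had the lowest ratio for both probe sets, while p62-EGFP tumor 1 lay between the EGFP tumors for the first and below both for the second. The group means of the log2 ratio differed by -0.66 and -1.06 (p62-EGFP minus EGFP). This is a description of the 4 tumors: an exact two-sided test of 2 against 2 cannot go below p = 0.333.

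The gene whose pattern over the 4 tumors lay nearest to that of Cdh1 was Krt8, an epithelial keratin, among 7845 genes searched. Krt8 read 101.3 and 239.2 in p62-EGFP tumors, against 136.6 and 80.5 in EGFP tumors, and its distance to Cdh1 was 0.18 (Euclidean, on log2(signal + 16) centred on each gene's mean of 4 tumors). The next were D17H6S56E-5 at 0.33 and Stap2 at 0.38. For Cdh2 (1418815_at) the nearest were Map3k5, a kinase gene, Dnase2a, a nuclease gene, and Mcam, a cell adhesion gene of endothelial and mural cells, at distances of 0.09, 0.11 and 0.11. All 3 were highest in EGFP tumor 1, and Mcam read 169.4 and 164.0 in p62-EGFP tumors, against 272.0 and 141.4 in EGFP tumors. With only 4 tumors many genes share a pattern, and these distances describe likeness only.

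**Figure D2:**
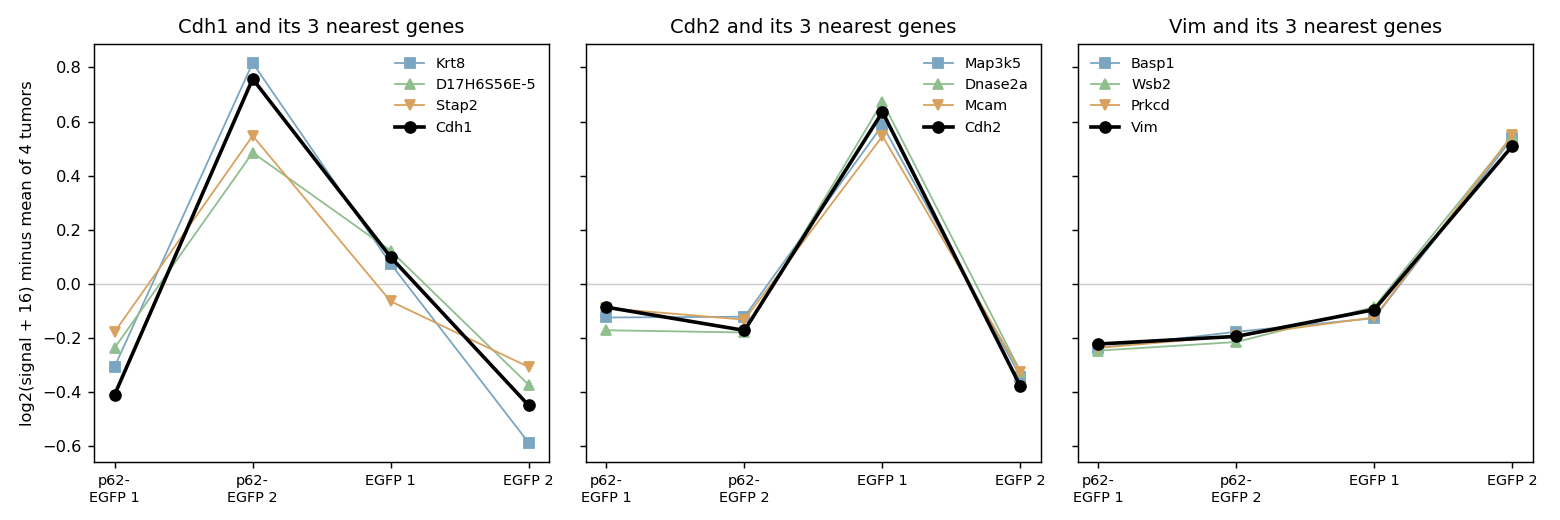
log2(signal + 16) minus its mean over the 4 tumors (vertical) for Cdh1, Cdh2 (1418815_at) and Vim (1450641_at) in black, each with the 3 genes at the smallest distance in colour; p62-EGFP tumors 1 and 2 stand at the left, EGFP tumors 1 and 2 at the right. Cdh1 and Krt8 peak together in p62-EGFP tumor 2, Cdh2 peaks in EGFP tumor 1, and Vim peaks in EGFP tumor 2.

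The transcription factors that repress Cdh1 did not share 1 pattern. Zeb1 and Zeb2 were lower in both p62-EGFP tumors, Twist1 was slightly higher in both, Snai2 overlapped, and Snai1 was dim in all 4. None passed the test. All of these factors bind the E-box sequence, and the Snail and Zeb repressors prefer the form CACCTG, which was searched on both strands. Upstream sequence is shown for Snai1, the only searched member with this form, and for Zeb2 and Twist1, whose tumors separated in opposite directions. Each run is the 250 bases before the RefSeq transcription start on GRCm38.p6, 5' to 3', with the E-box in capitals. The window of Snai1 is chr2:167537945-167538194 on the plus strand, that of Zeb2 is chr2:45117443-45117692 on the minus strand (the most upstream of 4 listed starts), and that of Twist1 is chr12:33957421-33957670 on the plus strand.
Snai1: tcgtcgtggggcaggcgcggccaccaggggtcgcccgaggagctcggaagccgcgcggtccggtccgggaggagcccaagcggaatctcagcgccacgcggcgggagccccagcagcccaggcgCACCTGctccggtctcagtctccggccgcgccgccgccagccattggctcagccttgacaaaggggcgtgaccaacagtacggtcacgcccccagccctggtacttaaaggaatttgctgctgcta
Zeb2: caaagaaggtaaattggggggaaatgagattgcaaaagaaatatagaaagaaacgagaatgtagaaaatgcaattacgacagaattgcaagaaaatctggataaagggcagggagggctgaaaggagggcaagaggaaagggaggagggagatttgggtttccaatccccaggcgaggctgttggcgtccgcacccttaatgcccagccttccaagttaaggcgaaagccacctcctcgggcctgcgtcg
Twist1: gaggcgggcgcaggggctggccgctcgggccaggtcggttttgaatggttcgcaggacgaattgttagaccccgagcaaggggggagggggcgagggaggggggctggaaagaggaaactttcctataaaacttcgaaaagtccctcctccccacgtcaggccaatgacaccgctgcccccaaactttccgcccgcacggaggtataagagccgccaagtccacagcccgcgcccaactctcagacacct
The E-box of Snai1 begins 126 bases before its start. It was the only match in 8 windows of 5 members (Vim, Zeb2, Snai1, Twist1 and S100a4), and 17.2% of all 32851 windows of this length hold one. A match is a description of the letters, and binding was not measured.

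Zeb1 encodes a zinc finger repressor of Cdh1 and of other epithelial genes. Its bright probe set 1418926_at read 95.4 and 78.9 in p62-EGFP tumors, against 249.5 and 165.4 in EGFP tumors. All 4 pairings of a p62-EGFP with an EGFP tumor gave a lower value in the p62-EGFP tumor, from -0.70 to -1.48 on the log2 scale. The mean was 87.2 ± 11.7 in p62-EGFP tumors and 207 ± 59.5 in EGFP tumors (SD, n = 2 each), a log2 difference of -1.09 (SE 0.24, 95% interval -1.70 to -0.49). The unadjusted p was 0.00520 and the adjusted p was 0.216 (limma), so the difference did not pass. The remaining 193 tested genes of its chromosome had a median of -0.16. The second probe set, 1420243_at, read 5.9 and 4.2 in p62-EGFP tumors, against 3.0 and 0.6 in EGFP tumors, and was too dim to be tested. Averaged over both probe sets, the log2 difference of Zeb1 was -0.42 (limma adjusted p = 0.436). Without EGFP tumor 1 or 2 that of 1418926_at was -0.82 and -1.37 (limma adjusted p = 0.0130 and 0.00198).

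Zeb2, the close relative of Zeb1, read 88.2 and 70.6 in p62-EGFP tumors, against 135.4 and 214.7 in EGFP tumors. The groups again did not overlap, with log2 pairings from -0.54 to -1.41. The mean was 79.4 ± 12.4 in p62-EGFP tumors and 175 ± 56.1 in EGFP tumors (SD, n = 2 each), a log2 difference of -0.98 (SE 0.26, 95% interval -1.63 to -0.33, limma adjusted p = 0.236). Without EGFP tumor 1 or 2 it was -1.28 and -0.67 (limma adjusted p = 0.00158 and 0.0497). The EGFP tumors were ordered oppositely by the pair: Zeb1 was higher in EGFP tumor 1 and Zeb2 in EGFP tumor 2. Endothelial and mast cell markers were also lower in p62-EGFP tumors, with 10 of 12 and 5 of 7 measured markers below both EGFP tumors. Among the markers bright enough to be tested these were 7 of 8 and 3 of 4, against 22.2% of all tested probe sets. The comparison is not a fair one. All 3 of these mast cell markers, such as Cpa3 (15.8 and 10.3 in p62-EGFP tumors), reached the filter only through EGFP tumors. The same held for the endothelial markers Cdh5, Kdr and Cldn5, so the filter favoured markers lower in p62-EGFP tumors. Other host lists differed: 0 of 18 macrophage and myeloid, 0 of 11 fibroblast and 0 of 12 skeletal muscle markers were below both EGFP tumors. For NK and T cell, adipocyte, and pericyte and smooth muscle markers it was 1 of 9, 1 of 4 and 4 of 8. The other 4 pericyte and smooth muscle markers were above both. The summed endothelial signals were 285 and 372 in p62-EGFP tumors, against 558 and 759 in EGFP tumors. Those of mast cell markers were 185 and 122 in p62-EGFP tumors, against 689.7 and 509.8 in EGFP tumors. The part of these host cells in the Zeb1 and Zeb2 values was not tested.

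Snai2 (Slug), a Snail family repressor, read 60 and 66.5 in p62-EGFP tumors, against 53.4 and 110.6 in EGFP tumors. Only EGFP tumor 2 was high, and the groups overlapped (log2 difference -0.24, 95% interval -1.04 to 0.56, limma adjusted p = 0.740). Without EGFP tumor 2 the difference was 0.19, and without EGFP tumor 1 it was -0.68 and passed (limma adjusted p = 0.0272). Snai1 read 12.1 and 10.0 in p62-EGFP tumors, against 10.3 and 13.7 in EGFP tumors, below the level for testing in all 4.

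Twist1, a basic helix-loop-helix factor, read 123.9 and 144.6 in p62-EGFP tumors, against 107.3 and 102.4 in EGFP tumors. It was the only tested member with both p62-EGFP tumors above both EGFP tumors. The mean was 134 ± 14.6 in p62-EGFP tumors and 105 ± 3.46 in EGFP tumors (SD, n = 2 each), a log2 difference of 0.31 (SE 0.17, 95% interval -0.12 to 0.74). It did not pass (limma adjusted p = 0.447). On its chromosome, 12, the remaining 259 genes had a median log2 difference of 0.16.

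**Figure D3:**
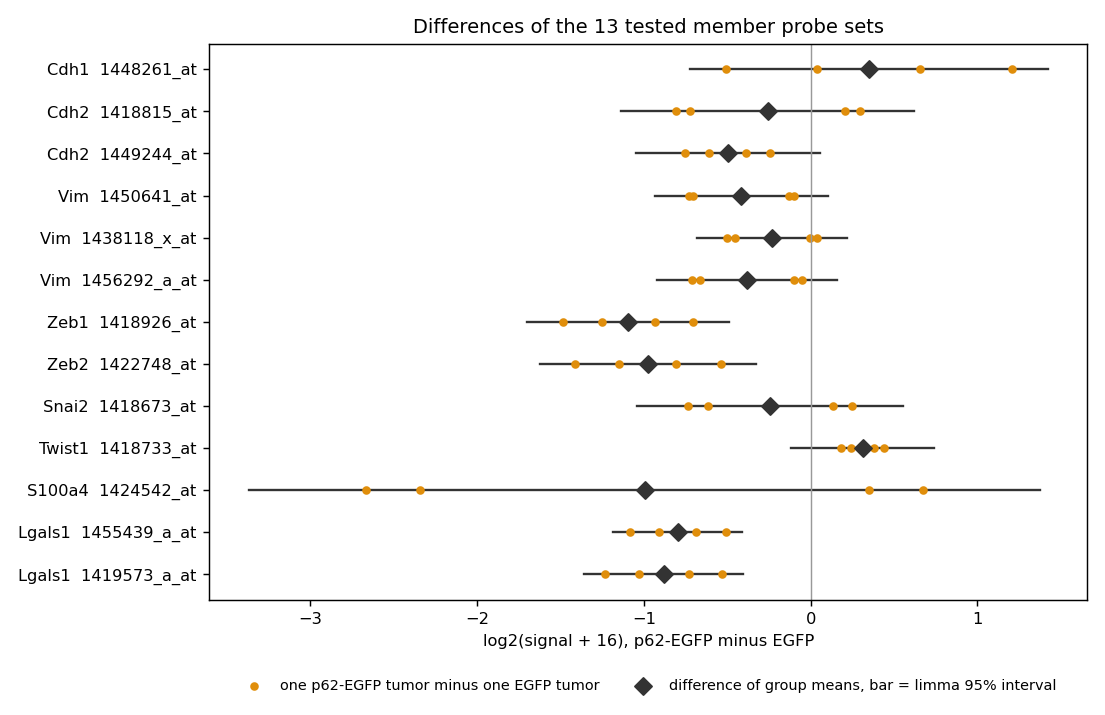
Difference in log2(signal + 16), p62-EGFP minus EGFP (horizontal), for the 13 tested member probe sets; diamonds are differences of group means with limma's 95% interval, and orange points are the 4 pairings of 1 p62-EGFP with 1 EGFP tumor. Intervals of Zeb1, Zeb2 and both Lgals1 probe sets lie below 0 before adjustment for the number of probe sets, and S100a4 has the widest interval, from -3.37 to 1.38.

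Among the effector genes, Lgals1 was the only one whose probe sets all kept the groups apart. It encodes galectin-1, a secreted lectin that binds sugar chains of cell surface and matrix proteins and is abundant in mesenchymal cells. Probe set 1455439_a_at read 1973.9 and 1495.9 in p62-EGFP tumors, against 3188.6 and 2818.1 in EGFP tumors. Probe set 1419573_a_at read 1292.2 and 907.9 in p62-EGFP tumors, against 2154.5 and 1872.8 in EGFP tumors. The probe sets ordered the 4 tumors alike, with EGFP tumor 1 highest and p62-EGFP tumor 2 lowest. The log2 differences were -0.80 (SE 0.15, 95% interval -1.18 to -0.41) and -0.88 (SE 0.19, 95% interval -1.36 to -0.40). Neither passed (limma adjusted p = 0.193 and 0.209), and the unadjusted p-values were 0.00289 and 0.00472. The mean signal in p62-EGFP tumors differed from that in EGFP tumors by -42.2% and -45.4%. On its chromosome, 15, the remaining 308 tested genes had a median of -0.21. Without EGFP tumor 2 its differences were -0.89 and -0.98 (limma adjusted p = 0.00669 and 0.0103). Without EGFP tumor 1 they were -0.71 and -0.78 (limma adjusted p = 0.0109 and 0.0174). The summed mast cell markers were 185 and 122 in p62-EGFP tumors 1 and 2, and 689.7 and 509.8 in EGFP tumors 1 and 2. Both Lgals1 probe sets and the Zeb1 probe set 1418926_at ordered the 4 tumors as this sum did, but the dim Zeb1 probe set 1420243_at did not. Of the single markers, Cpa3, Mcpt4, Tpsab1 and Tpsb2 had this order, while Cma1, Kit and Ms4a2 did not. How many of all tested probe sets have it was not counted, and the part of mast cells in these values was not tested.

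Vim was measured by 3 bright probe sets that gave 1 pattern. Probe set 1450641_at read 1439.6 and 1468.2 in p62-EGFP tumors, against 1573.6 and 2400.9 in EGFP tumors. Probe set 1456292_a_at read 966.0 and 933.4 in p62-EGFP tumors, against 1002.8 and 1539.1 in EGFP tumors. Probe set 1438118_x_at, of a type whose probes can bind related transcripts, read 1387.8 and 1434.2 in p62-EGFP tumors, against 1394.2 and 1973.3 in EGFP tumors. In each, EGFP tumor 2 stood high and the other 3 tumors lay close together, and for 1438118_x_at the groups overlapped. The log2 differences were -0.42, -0.38 and -0.23 (limma adjusted p = 0.409, 0.454 and 0.572). Without EGFP tumor 2 they were -0.11, -0.08 and 0.017. Without EGFP tumor 1 they were -0.72, -0.69 and -0.48 and passed (limma adjusted p = 0.00163, 0.00475 and 0.0143).

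The genes nearest to Vim (1450641_at) were Basp1, a membrane-bound signalling protein, Wsb2, and Prkcd, a protein kinase C isoform, at distances of 0.05 each. All 3 shared its high value in EGFP tumor 2, with Prkcd at 155.1 and 160.5 in p62-EGFP tumors, against 169.0 and 279.3 in EGFP tumors.

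S100a4, a calcium-binding protein also called fibroblast-specific protein, had the widest range of all members. It read 82.4 and 107.0 in p62-EGFP tumors, against 61.2 and 607.4 in EGFP tumors. The highest tumor was 9.92 times the lowest, and both belonged to the EGFP group, so the groups overlapped. The log2 difference of -0.996 had an SE of 0.94 (95% interval -3.37 to 1.38, limma adjusted p = 0.642). Without EGFP tumor 2 it turned to 0.51, and without EGFP tumor 1 it was -2.50 and passed (limma adjusted p = 3.35e-05).

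Vim, S100a4, Snai2 and Zeb2 were all highest in EGFP tumor 2. All 18 macrophage and myeloid markers were highest there as well, among them Ptprc, the leukocyte CD45, at 95.9 and 114.7 in p62-EGFP tumors, against 60.8 and 1264.0 in EGFP tumors. So were all 9 NK and T cell markers, whose summed signal was 66.2 and 86.9 in p62-EGFP tumors, against 80.3 and 3056.5 in EGFP tumors. The same held for 9 of 11 fibroblast and 9 of 12 endothelial markers, but for only 3 of 8 pericyte and smooth muscle and 1 of 7 mast cell markers. The share of all tested probe sets highest in this tumor, whose array stood apart, was not counted. The fibroblast sum was 2472 and 3168 in p62-EGFP tumors, against 1112 and 3773 in EGFP tumors. No marker on these lists stood at 0 in any tumor, which does not show that each was detected. Outside EGFP tumor 2, Cd2 read 1.5 to 1.8 and Gzmb 1.1 to 6.2. S100a4 was lowest in EGFP tumor 1, as 17 of the 18 macrophage markers were. The part of these host cells in the values of these 4 members was not tested. Skeletal muscle markers were highest in p62-EGFP tumor 1 (summed signal 4800.0, against 75.1 in p62-EGFP tumor 2, and 63.3 and 819.5 in EGFP tumors). No member had its highest tested signal in that tumor.

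**Figure D4:**
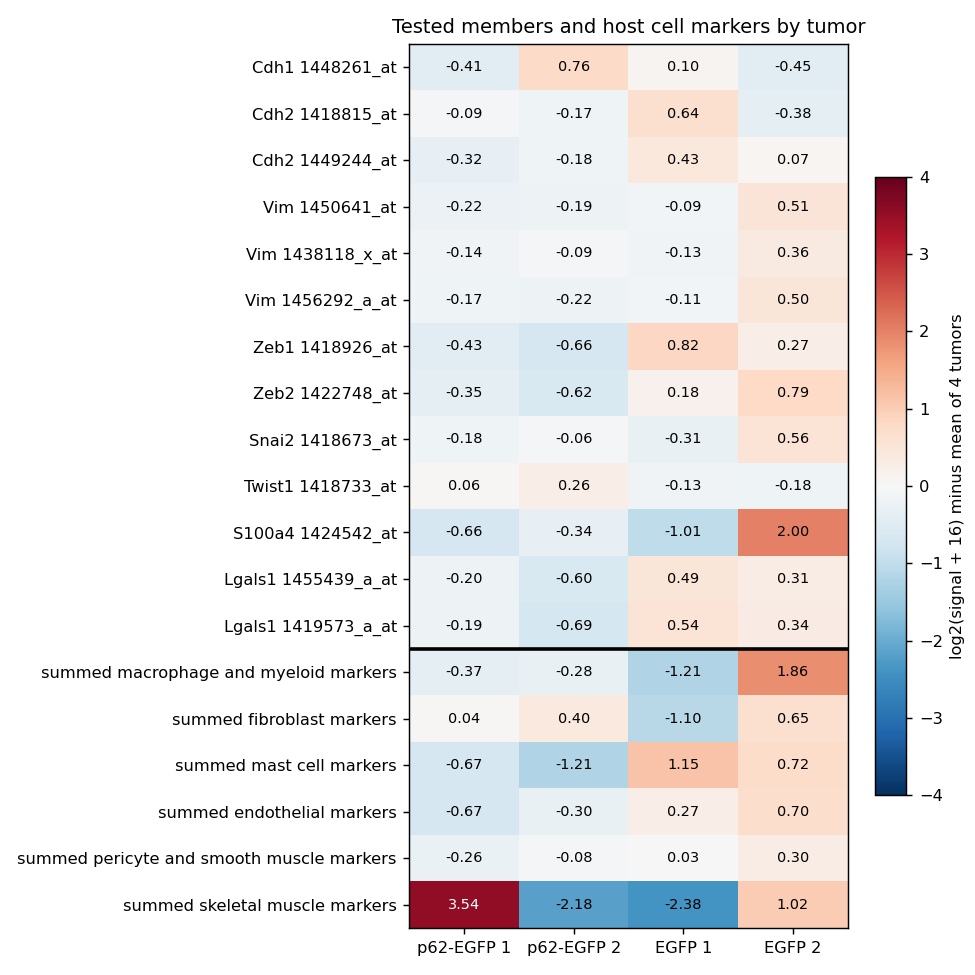
log2(signal + 16) minus its mean over the 4 tumors (number and colour) for the 13 tested member probe sets, above the black line, and for summed signals of host cell markers, below it; columns are p62-EGFP tumors 1 and 2, then EGFP tumors 1 and 2. S100a4, the Vim probe sets, Snai2 and Zeb2 are highest in EGFP tumor 2 together with the macrophage and myeloid sum, whereas Zeb1 and Lgals1 are highest in EGFP tumor 1.

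Related genes, represented by the probe set of highest mean, gave 0 members past the test on each of 4 lists (0 at limma's adjusted threshold, against 0.0884% of all tested probe sets). Without EGFP tumor 1, 9 of 21 junction partners, 7 of 12 epithelial identity genes, 13 of 30 mesenchymal genes and 7 of 27 regulators passed, against 20.9% of all tested probe sets. Without EGFP tumor 2, 1, 2, 13 and 7 of them passed, against 9.53% of all tested probe sets. Over all 7846 genes represented this way the median log2 difference was 0.01. Of 21 tested partners of cadherins in adherens junctions, tight junctions and desmosomes, 7 were higher and 3 lower in each p62-EGFP tumor than in either EGFP tumor (median log2 difference 0.28), against 26.7% and 22.2% of all tested probe sets. Ppl, among the 7 higher genes, read 37.7 and 44 in p62-EGFP tumors, against 36.3 and 25.8 in EGFP tumors. Its log2 mean in EGFP tumors alone was below the filter level, so it was tested only through p62-EGFP tumors. The filter thus favoured its count among the 7. Vcl (vinculin, which couples junctions to actin) read 232.8 and 246.8 in p62-EGFP tumors, against 367.8 and 368.6 in EGFP tumors (limma adjusted p = 0.229). Dsp (desmoplakin) read 678.1 and 894.9 in p62-EGFP tumors, against 646.9 and 470.9 in EGFP tumors (limma adjusted p = 0.380). The desmosomal Pkp2 and the polarity gene Llgl2 were also higher in both, with log2 differences of 0.41 and 0.56 (limma adjusted p = 0.368 and 0.371).

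Of 12 tested genes of epithelial identity, 4 were higher and 1 lower in both p62-EGFP tumors (26.7% and 22.2% of all tested probe sets), with a median of 0.41. Krt19, a keratin of simple and ductal epithelia, had the largest difference of the list's 4 named genes, at 332.9 and 341.3 in p62-EGFP tumors, against 93.6 and 156.2 in EGFP tumors. Its log2 difference was 1.36 (SE 0.25, limma adjusted p = 0.188). The epithelial transcription factor genes Elf3 and Ovol2, the second a repressor of Zeb1, had differences of 0.63 and 0.61 (limma adjusted p = 0.369 and 0.382). Ovol2 read 49.5 and 52.3 in p62-EGFP tumors, against 39.1 and 18.9 in EGFP tumors. Its log2 mean in EGFP tumors alone was below the filter level, so it was tested only through p62-EGFP tumors. The filter thus favoured its count among the 4 higher genes. Klf4 was lower, by -0.48 (limma adjusted p = 0.350). The medians depended on which EGFP tumor was taken: against EGFP tumor 1 the epithelial identity median was -0.07 and 0.17 in p62-EGFP tumors 1 and 2, and against EGFP tumor 2 it was 0.50 and 1.01. For junction partners it was -0.05 and 0.21 against EGFP tumor 1, and 0.34 and 0.43 against EGFP tumor 2.

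Of 30 other mesenchymal genes tested, 9 were higher and 9 lower in both p62-EGFP tumors (26.7% and 22.2% of all tested probe sets), with a median of 0.14. The sign of this median turned with the EGFP tumor taken: it was 0.36 and 0.51 in p62-EGFP tumors 1 and 2 against EGFP tumor 1, and -0.38 and -0.13 against EGFP tumor 2. Lox, which cross-links collagen, read 109.0 and 122.3 in p62-EGFP tumors, against 22.9 and 25.3 in EGFP tumors. Both EGFP signals of Lox were below the filter level, so it was tested only through p62-EGFP tumors. The filter thus favoured its count among the 9 higher genes. Postn (periostin, a matrix protein) read 524.8 and 505.1 in p62-EGFP tumors, against 132.5 and 200.6 in EGFP tumors, and Ccn2, a matricellular protein, 311.7 and 375.3 in p62-EGFP tumors, against 132.7 and 136.6 in EGFP tumors. Axl, a receptor tyrosine kinase, read 159.4 and 174.0 in p62-EGFP tumors, against 380.7 and 460.5 in EGFP tumors. Their limma adjusted p-values were 0.107 for Lox and 0.161 for the other 3. Lox, Postn and Ccn2 were higher in the same tumors in which Zeb1, Zeb2 and Lgals1 were lower.

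Of 27 tested regulators and cofactors of the transition, 4 were higher and 6 lower in both p62-EGFP tumors (26.7% and 22.2% of all tested probe sets), with a median of -0.05. Against EGFP tumor 1 the median was -0.21 and -0.11 in p62-EGFP tumors 1 and 2, and against EGFP tumor 2 it was -0.00038 and 0.04. Tgfb1, the cytokine that can start the transition, read 119.0 and 121.1 in p62-EGFP tumors, against 265.9 and 243.0 in EGFP tumors, a log2 difference of -0.99 (SE 0.16, limma adjusted p = 0.179). Ets1, a transcription factor of endothelial, lymphoid and mesenchymal cells, read 66.3 and 79.8 in p62-EGFP tumors, against 120.2 and 253.1 in EGFP tumors (limma adjusted p = 0.274). Fbxl14, part of a ubiquitin ligase for Snail family proteins, and Id3, an inhibitor of helix-loop-helix factors, were lower by -0.52 each (limma adjusted p = 0.273 and 0.342).

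**Figure D5:**
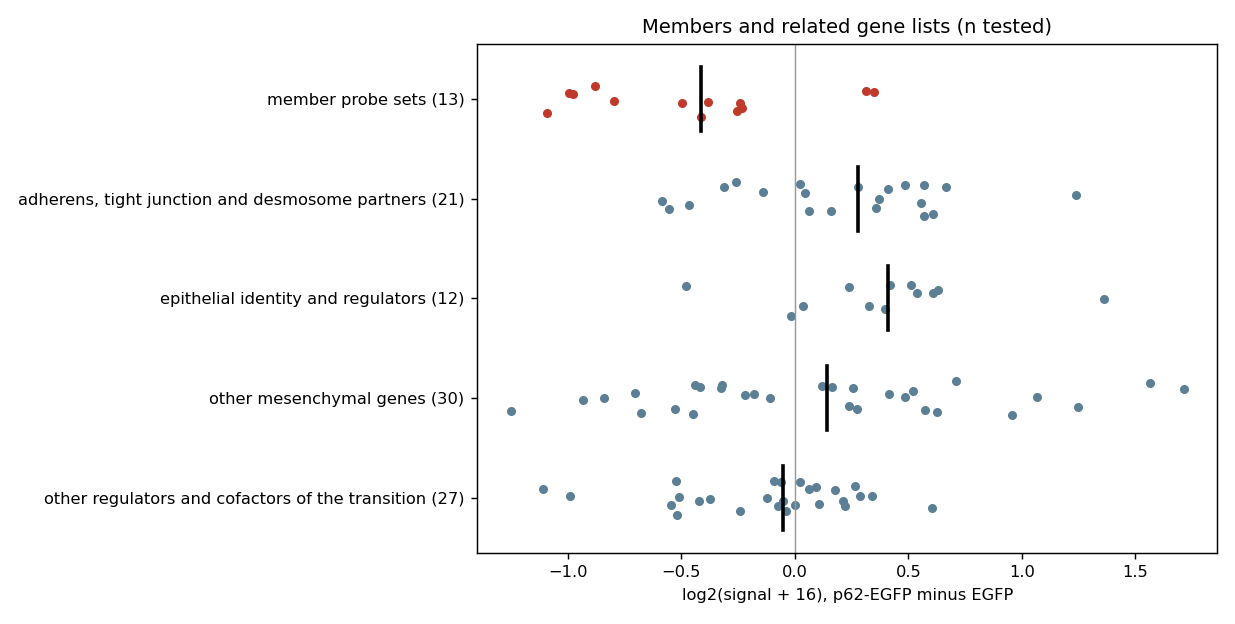
Difference in log2(signal + 16), p62-EGFP minus EGFP (horizontal), of the 13 tested member probe sets (red) and of the tested genes of 4 related lists (blue, 1 point per gene), with the median of each set as a black bar; vertical scatter within a row has no meaning. The medians are -0.42 for the members, 0.28 for junction partners, 0.41 for epithelial identity, 0.14 for other mesenchymal genes and -0.05 for regulators.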

How the data were processed

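Per the labels' protocols, biotin-labelled cRNA from 6 ug of total RNA per tumor was hybridized to GeneChip Mouse Genome 430A 2.0 arrays. The deposited values are linear signal intensities, 1 per probe set, made with MAS5 per the submitters' processing notes (its settings are not stated there). All 4 arrays had a 2% trimmed mean signal of 150.04, so the scaling by the authors was kept. Genes were named through the supplied array annotation, and 64 control probe sets were left out of 22690. Signals were transformed as log2(signal + 16); probe sets with a mean at or above the 40th percentile (5.60) were fitted in R 4.3.3 with limma 3.58.1 (lmFit, then eBayes with a mean-variance trend; two-sided), p62-EGFP against EGFP. Lists are described by counts and medians. The script was tested on simulated data. The 4 arrays limit the precision, with 2 residual degrees of freedom.

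The members and lists were chosen with earlier results of these data known. All probe sets of the 10 members are named, with Sqstm1 as a check, the 4 genes of smallest p on each related list, and the 3 genes nearest to Cdh1, Cdh2 and Vim. Atg5 and cell type marker genes were named as checks, and Ppl for its place at the filter, after their values were seen. Upstream sequences are RefSeq's for GRCm38.p6, searched by exact match; windows for the other 5 members were not used here. Alternatives covered array scaling, pseudocount, filter, variance model, a replicate block, averaged probe sets and leaving out each tumor. Figures were made with Python 3.11.15 and matplotlib 3.10.9.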

Additional observations from a re-analysis of the deposited data

How the results depend on the processing

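No member probe set passed in any of the 9 alternatives that kept all 4 tumors, and none turned its direction there except the dim Zeb1 probe set, at -0.42 when averaged with the bright one. The lowest adjusted p was 0.0506, for Lgals1 (1455439_a_at) with the replicate number as a block. Over all tested probe sets, 12 passed, with 6 under no filter, 7 with the filter at the 60th percentile, 37 with the replicate block and 1 with averaged probe sets. The same replicate number is only a label here: the difference between tumors 1 and 2 correlated at r = 0.08 between the groups, and the block changed no call of a member or a list. Leaving out each tumor in turn gave 0 to 2835 probe sets in all, 0 to 9 member probe sets, 0 to 9 junction partners, 0 to 7 epithelial identity genes, 0 to 13 mesenchymal genes and 0 to 7 regulators. With 1 tumor left out, the member probe sets with each remaining p62-EGFP tumor below each remaining EGFP tumor numbered 7 to 10. Those with each above numbered 1 to 3. This alternative was chosen after the data were seen. The shares over all tested probe sets were then 30.1% to 43.7% lower and 35.4% to 49.5% higher. Directions turned for Cdh1 without p62-EGFP tumor 2 (-0.23; range over the 4 tumors -0.23 to 0.93), Cdh2 1418815_at without EGFP tumor 1 (0.25; -0.76 to 0.25), and without EGFP tumor 2 for Vim 1438118_x_at (0.017; -0.48 to 0.017), Snai2 (0.19; -0.68 to 0.19) and S100a4 (0.51; -2.50 to 0.51). The cause was not tested. Dim probe sets such as that of Snai1 carry little signal over background and limit what can be said of them.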
